A study of Mus musculus with 10 samples.

Results

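The count table held 431 rows for mouse tRNA genes, each carrying the amino acid and the anticodon in its name. The 151 rows named for alanine (Ala), cysteine (Cys), serine (Ser), leucine (Leu) and selenocysteine (SeC) are described here, out of 6968 rows in all. They were chosen by name alone. Ala had 40 rows with 3 anticodons, Cys 57 rows with 1 anticodon, Ser 23 rows with 5, Leu 29 rows with 5 and SeC 2 rows with 1. The small RNA came from CD43- splenic B-cells, the resting B-cells left after CD43-positive cells are removed. Donors were adult wt mice of the 129 strain, 3'RR-deficient mice and Eµ-deficient mice of the same background. The 3'RR-deficient line lacks the regulatory region downstream of the immunoglobulin heavy chain locus, and the Eµ-deficient line lacks the enhancer upstream of the constant genes with its flanking matrix attachment regions. Cells were kept for 2 days in medium alone (NS, non-stimulated) or with 5 µg/ml LPS, a bacterial lipid that drives B-cells to divide and to switch antibody class. That dose is the one in the stimulation label, and the study's methods also give µg, while the protocol text in the labels writes mg/ml. The labels say that NS cells were cultured, whereas the methods describe cells taken before and after stimulation, so LPS against NS may also hold the time in culture. The wt and 3'RR-deficient groups had 2 libraries in each condition and the Eµ-deficient group had 1. Cells of 2 mice were pooled for each library, so p-values measure the spread between pools. The methods describe splenocytes of each genotype's mice before and after stimulation, so NS and LPS libraries of a genotype may share mice. All tests treated the libraries as independent, and the 2 Eµ-deficient libraries may hold cells of the same 2 mice.

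Transfer RNAs carry amino acids to the ribosome and read the codon through a 3-base anticodon. Small RNA libraries capture pieces of them, among them fragments cut in the anticodon loop when cells are stressed or starved. Fragments from the 5' end of Ala and Cys tRNAs begin with a run of guanines and are known to repress the start of translation. Ser, Leu and SeC tRNAs share a long variable arm that most other tRNAs lack, and SeC tRNA reads a stop codon to insert selenocysteine. In this table a count is a read assigned to a tRNA gene, and neither the part of the gene it covered nor its length was given.

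The sequences below, from GENCODE M21 and RefSeq (GRCm38), are shown because the names and counts of 2 groups of rows can be set against them. Each is given 5' to 3' with the anticodon in capitals.
chr13.tRNA66-AlaAGC: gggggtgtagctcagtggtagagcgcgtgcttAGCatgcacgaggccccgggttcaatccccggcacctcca
chr13.tRNA996-SerTGA: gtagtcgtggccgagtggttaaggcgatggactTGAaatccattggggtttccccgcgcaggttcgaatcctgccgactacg
chr4.tRNA16-SerAGA: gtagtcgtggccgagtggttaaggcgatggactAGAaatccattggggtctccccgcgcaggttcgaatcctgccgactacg
chr13.tRNA982-SerGCT: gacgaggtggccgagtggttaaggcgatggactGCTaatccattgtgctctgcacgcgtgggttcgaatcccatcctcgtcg
chr7.tRNA561-LeuAAG, positions 12 to 82: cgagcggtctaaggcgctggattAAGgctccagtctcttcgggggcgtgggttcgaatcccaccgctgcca
chr16.tRNA4-LeuAAG: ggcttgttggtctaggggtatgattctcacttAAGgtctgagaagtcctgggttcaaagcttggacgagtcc
chr17.tRNA997-ProTGG: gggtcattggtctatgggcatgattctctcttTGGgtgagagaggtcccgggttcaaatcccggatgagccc
The AlaAGC sequence (chr13:21222586-21222657, + strand) opened with 5 guanines. The SerTGA sequence (chr13:21924935-21925016, - strand) was identical to that of chr13.tRNA112-SerTGA (chr13:23518146-23518227, + strand). It differed from the SerAGA sequence (chr4:10874064-10874145, + strand) by T34A in the anticodon and T50C, counted from 1 at the 5' end, an identity of 97.6%. The SerGCT row (chr13:22050686-22050767, - strand) was 74.4% identical to the SerTGA row. The LeuAAG row on chromosome 7 (chr7:120917528-120917598 for the bases shown, + strand) has 82 nt in all. The LeuAAG row on chromosome 16 (chr16:3449838-3449909, + strand) has 72 nt and shares its sequence with chr16.tRNA829-LeuAAG and chr19.tRNA2-LeuAAG. It was 76.4% identical to the proline row shown, chr17.tRNA997-ProTGG (chr17:23538766-23538837, - strand), with 17 differences. The sequences of chr1.tRNA284-ProAGG and chr13.tRNA992-SerAGA, whose counts are set beside these rows below, were not analysed. None of those 3 LeuAAG rows of 72 nt coincided with a RefSeq tRNA gene, and all lay opposite an exon of a long noncoding RNA.

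Of the 151 rows, 137 coincided with a RefSeq tRNA gene, among them all 57 Cys rows and neither SeC row. Cys genes were clustered, with 49 of 57 rows on chromosome 6 between 47978997 and 48363603, a span of 384.6 kb. Ala had 14 rows on chromosome X and 12 on chromosome 13, and Ser had 12 on chromosome 13. GENCODE placed 122 rows outside any other gene, 9 in introns on the strand of the host gene, 10 in introns on the opposite strand, 5 over exons on the same strand and 5 over exons on the opposite strand. Most rows were therefore free-standing genes.

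Depth ranged from 3482540 to 18144016 counts per library. All tRNA rows together took 6.11% to 20.5% of the counts, and the 151 rows took 1.36% to 4.24%. With 82079 to 441602 counts on these rows in each library, counting error was small beside the spread between libraries, the Wilson 95% interval for the lowest share running from 1.35% to 1.36%. The 2 NS libraries numbered 2, wt and 3'RR-deficient, were the shallowest, with 3482540 and 3756662 counts. They stood apart from the NS libraries numbered 1, the median row of the 5 amino acids differing by -1.21 (wt) and -0.42 (3'RR-deficient) on the log2 scale, and the leave-one-out values cover both. The microRNA miR-142a-5p was at 160689 and 98841 CPM in the NS libraries numbered 1 (wt and 3'RR-deficient) and at 4520 and 3941 CPM in those numbered 2. The Eµ-deficient LPS library had the highest tRNA share. The microRNAs miR-150, miR-142a, miR-181a and miR-155, taken here as lymphocyte markers, were found in every library. Their summed level was 58835 to 231440 CPM (read counts relative to the TMM-scaled library size), but single members moved in opposite directions. In NS libraries miR-150-5p had 25185 to 55696 CPM, miR-181a-5p 20341 to 34403 CPM and miR-155-5p 3957 to 9434 CPM. In LPS libraries they had 3246 to 7586, 2501 to 6842 and 18346 to 51278 CPM, so the sum does not show a stable lymphocyte content. Of the 151 rows 145 were counted in every library, and 147 passed the filter on low counts over the 8 wt and 3'RR-deficient libraries.

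Among the 5 amino acids, Ala fragments were the most abundant, and Cys and Leu fragments came next at levels that could not be ordered. Levels were compared per length, as CPM per 100 nt of gene, summed over the rows of an amino acid. Ala had a median of 13993 over the 10 libraries (6135 to 24082), Cys 6755 (3825 to 8212) and Leu 6006 (3862 to 10913). Ser had a median of 1644 (1022 to 2389), and SeC, with only 2 rows, 144 (104 to 713). Ala lay above Cys, Ser and SeC in 10 of 10 libraries and above Leu in 9 of 10 (exact sign-flip permutation over the libraries, two-sided, adjusted over 210 pairs of amino acids, p = 0.00275 and, for Leu, 0.00774). Cys lay above Leu in 5 of 10 libraries (mean log2 ratio 0.01, SD 0.67, exact p = 0.980). Ser lay below Cys and Leu and above SeC in 10 of 10 libraries (adjusted exact permutation p = 0.00275 each, the raw value being the smallest that 10 libraries allow). The rank of Ala rested on 1 row, chr5.tRNA1318-AlaTGC. The other Ala rows held 1.88% to 5.38% of tRNA counts against 3.35% to 6.83% for Leu, and lay above Leu only in wt NS 1. The level of Cys rested on chr11.tRNA1444-CysGCA, and the other Cys rows held 0.929% to 2.89%, below Leu in every library. Not divided by length, they also lay below Ser in wt NS 2 (1.30% against 1.95%), both 3'RR-deficient NS libraries and Eµ-deficient NS, and above Ser in the others. Taken per row and not summed, the order changed. Leu had a median of 207 CPM per 100 nt and row and Cys 119, and Leu then lay above Cys (mean log2 ratio of Cys to Leu -0.97, adjusted exact permutation p = 0.00689). SeC then lay above Ser in 7 of 10 libraries (mean log2 ratio 0.39, adjusted exact permutation p = 0.198), and Cys above SeC in 7 of 10 (0.24, adjusted exact permutation p = 0.553).

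How far 1 gene copy dominated differed between anticodons. Of the 14 anticodons with more than 1 row, the leading row held over 50% of the counts in every library for 2, AlaTGC and LeuTAA, and under 50% in every library for 6. Among the anticodons of the 5 amino acids, AlaTGC had the highest median level (9272 CPM per 100 nt) and SerCGA the lowest (50.8). The row chr5.tRNA1318-AlaTGC (n-TAtgc10, chr5:125404250-125404321, - strand, outside other genes) held 83.7% to 96.8% of the AlaTGC counts and 23.7 to 135 times those of the next row. The row chr11.tRNA1444-CysGCA (n-TCgca18, chr11:97769829-97769900, - strand, outside other genes) held 18.5% to 82.1% of the Cys counts, 3.91 to 49.2 times the next row. Together these 2 rows made up 15.4% to 66.3% of the counts of the 5 amino acids. In LeuTAA, chr10.tRNA1326-LeuTAA (chr10:12922571-12922653, - strand, over an exon of B230208H11Rik) held 74.0% to 94.1% of the counts. LeuCAG was the opposite case, with its highest row, chr1.tRNA698-LeuCAG, at 10.5% to 11.2% of the counts of 10 rows. Sets of 4 and 3 of these rows had matching counts, as described below. The even split can therefore not be read as the output of separate gene copies. In AlaAGC, chr5.tRNA110-AlaAGC led with 10.2% to 15.1% of the counts of 19 rows, which ran in wt NS 1 from 4435 counts down to 0 (chr11.tRNA1203-AlaAGC).

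Many rows had matching counts. Of the 138 rows with a mean of at least 100 counts, 62 fell into 14 sets. Each row of a set matched at least 1 other row of it more closely than separate counts would (chi-square of the pair over the 10 libraries below its 2.5% quantile). The sets are chains of such pairs, and not every pair within a set met the criterion. The largest sets held 19 and 12 CysGCA rows, then 5 SerAGA, 4 LeuCAG, 3 LeuCAG and 3 SerGCT rows. How reads with several matching places were counted is not given in the sources used here. Sums over an anticodon may therefore hold a read more than once, and the rows of a set are not separate measurements. Where the rows of an anticodon with sets are counted by direction below, the number of units is given beside them, a unit being a set or a row outside any set.

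2 of the sets crossed names. The row chr13.tRNA112-SerTGA had 464, 527, 1011, 448 and 851 counts in wt NS 1, wt NS 2, 3'RR-deficient NS 1, 3'RR-deficient NS 2 and Eµ-deficient NS, and its ratio to chr13.tRNA992-SerAGA lay between 0.988 and 1.04 in all 10 libraries. The row chr13.tRNA996-SerTGA, with the same sequence as chr13.tRNA112-SerTGA, had 484, 527, 1079, 447 and 859 counts in the same NS libraries. In wt LPS 1, wt LPS 2, 3'RR-deficient LPS 1, 3'RR-deficient LPS 2 and Eµ-deficient LPS it had 1625, 1256, 1339, 2259 and 2126 counts, against 443, 579, 658, 1061 and 1518 for chr13.tRNA112-SerTGA. The ratio of the 2 identical rows was thus 0.998 to 1.07 in NS libraries and 1.40 to 3.67 in LPS libraries, with no overlap. This pair was singled out after its values were seen and no test is given. GENCODE lists both rows as exons of genes of its microRNA class on the same strand, Gm44456 for chr13.tRNA996-SerTGA and n-TStga1 for chr13.tRNA112-SerTGA.

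The other set that crossed names joined 2 of the 72 nt LeuAAG rows to a proline row. The row chr16.tRNA4-LeuAAG had 541, 28, 232, 43 and 314 counts in the NS libraries in the same order, and chr1.tRNA284-ProAGG had 535, 29, 235, 43 and 307. In the LPS libraries chr16.tRNA4-LeuAAG had 1163, 1656, 308, 2318 and 1892 counts and chr1.tRNA284-ProAGG 1161, 1655, 303, 2317 and 1886. The third such row, chr16.tRNA829-LeuAAG, had 1.04 to 1.46 times the counts of chr16.tRNA4-LeuAAG. The counts matching a proline row put the Leu name of chr16.tRNA4-LeuAAG and chr19.tRNA2-LeuAAG in doubt, without showing which name holds. The third row shares their sequence and their length of 72 nt, without matching counts. Together these LeuAAG rows are called the 72 nt LeuAAG rows below.

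**Figure D1:**
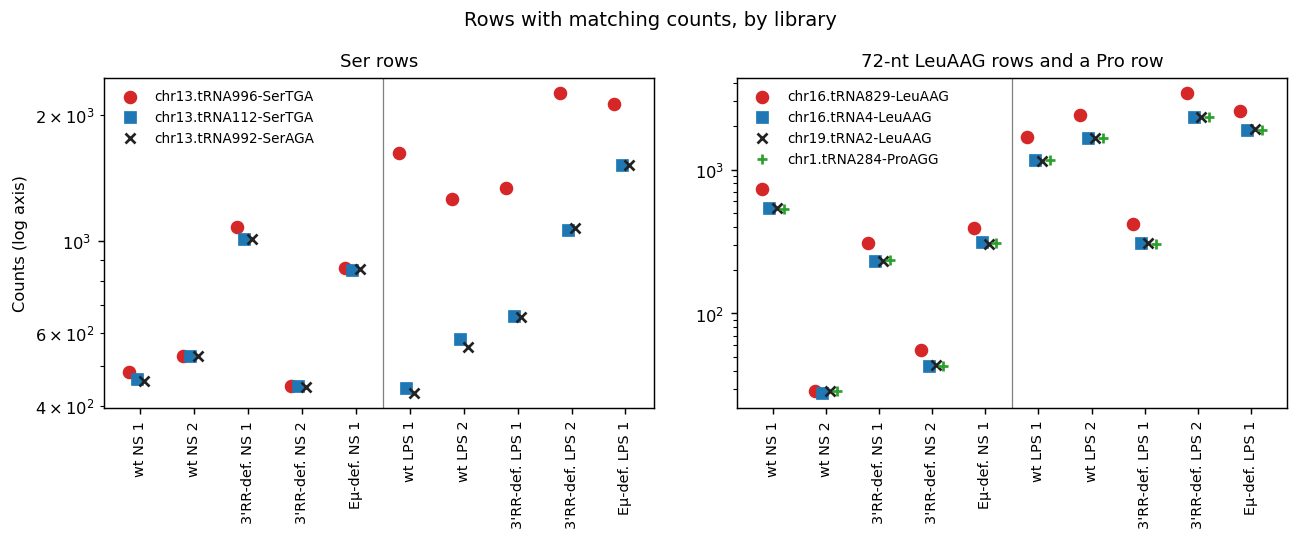
Counts (log axis) by library for 3 Ser rows (left) and for the 72 nt LeuAAG rows with a proline row (right), NS libraries left of the grey line and LPS libraries right of it. The 2 SerTGA rows of identical sequence coincide in NS libraries and separate by 1.40 to 3.67 times in LPS libraries, whereas chr16.tRNA4-LeuAAG, chr19.tRNA2-LeuAAG and chr1.tRNA284-ProAGG coincide throughout.

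The first comparison asked how the 5 amino acids shared the tRNA counts with and without LPS, over the 5 LPS and 5 NS libraries of all genotypes. Ala had a lower mean share with LPS, and none of the 5 amino acids passed the adjusted test. The Ala share of tRNA counts was 11.5%, 19.3%, 13.3%, 19.4% and 9.47% in wt NS 1, wt NS 2, 3'RR-deficient NS 1, 3'RR-deficient NS 2 and Eµ-deficient NS. It was 6.85%, 9.36%, 5.24%, 10.2% and 3.38% in the LPS libraries in the same order. Only Eµ-deficient NS and 3'RR-deficient LPS 2 overlapped. The means were 14.6% ± 4.57 and 7.01% ± 2.84 (SD, n = 5 each), a log2 difference of -1.11 (exact permutation p = 0.0159, 0.0556 when adjusted over 21 amino acids, so not past 0.05). Most of the difference lay in chr5.tRNA1318-AlaTGC, at 11.4% ± 5.15 in NS and 4.37% ± 2.30 in LPS libraries (SD, n = 5). The other Ala rows took 3.19% ± 1.22 and 2.64% ± 0.593, and their libraries overlapped. Cys shares were 5.21% ± 1.72 in NS and 3.57% ± 1.12 in LPS libraries (SD, n = 5, adjusted exact p = 0.278). Leu shares were 4.55% ± 1.41 and 5.51% ± 1.07 (adjusted exact p = 0.359), and Ser shares 1.36% ± 0.443 and 1.17% ± 0.433 (adjusted exact p = 0.625). SeC shares were 0.114% ± 0.0150 and 0.196% ± 0.127 (adjusted exact p = 0.548). With 5 libraries against 5 the smallest exact p is 0.00794, so at least 4 of the 21 amino acids would have to reach it for any to pass.

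**Figure D2:**
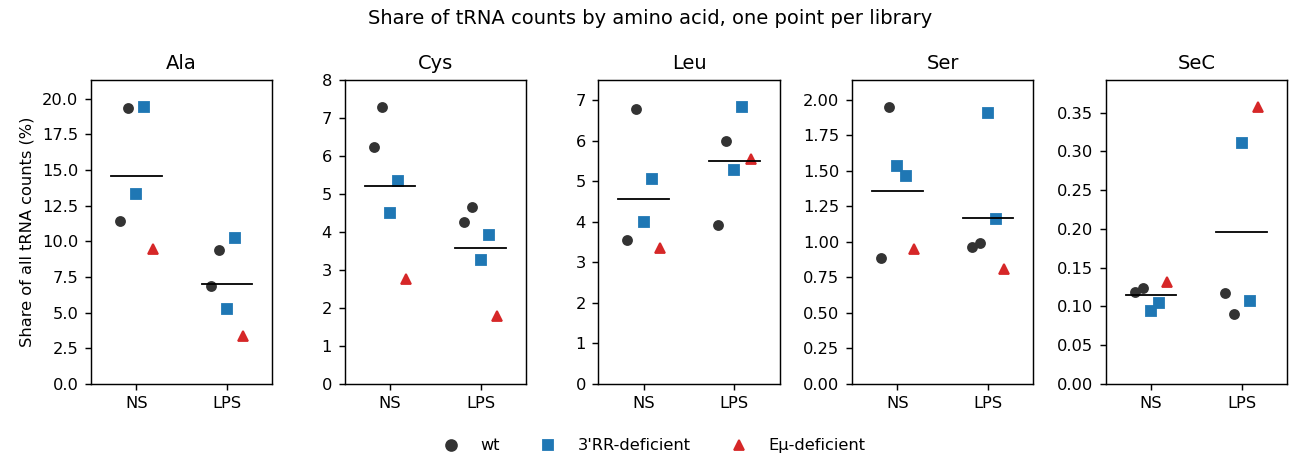
Share of all tRNA counts (%) taken by each amino acid in the 5 NS and 5 LPS libraries, one point per library, with the mean of 5 as a bar. The Ala mean is 14.6% in NS and 7.01% in LPS libraries, and the other 4 amino acids overlap widely between conditions.

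Together the 5 amino acids took 16.6% to 35.5% of tRNA counts in NS libraries and 11.9% to 22.2% in LPS libraries (means 25.8% and 17.5%). Without chr5.tRNA1318-AlaTGC and chr11.tRNA1444-CysGCA, the 2 leading rows, the means were 10.7% and 11.9%. The difference of -8.37 points was -0.449 points when taken as a share of all counts, and -16.5 points of tRNA counts when 1 row was kept per set of matching rows, an alternative chosen after seeing the data. In bulk samples fewer cells of a type and less RNA per cell cannot be told apart. MicroRNAs that mark other cells (miR-223, miR-451a, miR-144, miR-486a, miR-126a, miR-143, miR-145a and miR-199a, 8 of 8 with a row) had a lower summed level with LPS within each genotype. The sum was 1948 to 15704 CPM in NS and 135 to 2553 CPM in LPS libraries, so the ranges overlapped. Single markers did not all follow. In wt NS 2 miR-126a-3p had 14.5 CPM and miR-144-3p 1.64 CPM, against 6.99 to 30.5 and 4.97 to 29.1 CPM in LPS libraries. miR-145a was at 0 in both 3'RR-deficient LPS libraries. The part of these microRNAs in the result was not tested.

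Within Ala, AlaTGC had the largest difference of the 3 anticodons. Its share was 11.96% ± 5.14 in NS and 4.88% ± 2.42 in LPS libraries (SD, n = 5, log2 difference -1.36, exact permutation p = 0.0397, adjusted 0.124). AlaCGC took 1.22% ± 0.111 and 1.11% ± 0.153 (adjusted exact p = 0.409), and AlaAGC 1.41% ± 1.15 and 1.02% ± 0.518 (adjusted exact p = 0.704). Among Leu anticodons, LeuCAA, LeuCAG and LeuTAA had higher mean shares with LPS, and LeuTAG and LeuAAG lower ones. LeuCAA took 0.815% ± 0.248 in NS and 1.29% ± 0.280 in LPS libraries (SD, n = 5, log2 difference 0.68, exact p = 0.0317, adjusted 0.113). LeuCAG took 1.56% ± 0.339 and 2.46% ± 0.689 (log2 difference 0.63, exact p = 0.0397, adjusted 0.124). LeuTAA took 0.337% ± 0.0795 and 0.530% ± 0.157 (log2 difference 0.63, exact p = 0.0556, adjusted 0.138). LeuTAG took 0.702% ± 0.311 and 0.394% ± 0.118 (log2 difference -0.79, exact p = 0.0635, adjusted 0.138), and LeuAAG 1.14% ± 0.557 and 0.840% ± 0.126 (adjusted exact p = 0.512). SerCGA was the rarest of the 15 anticodons described here. It had no overlap between conditions, with 0.0224% to 0.0314% in NS and 0.0328% to 0.0594% in LPS libraries (log2 difference 0.75, exact p = 0.00794, the smallest possible, adjusted 0.0992). None of the 15 anticodons passed 0.05 after adjustment over 50 anticodons, for which at least 8 would have to reach the smallest p. As shares of all counts, 2 passed, LeuTAA (log2 difference 1.05) and SerCGA (1.17), both with an adjusted exact permutation p of 0.0265. On that scale the log2 difference of Ser was 0.20, against -0.22 as a share of tRNA counts.

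Row by row, the comparison used the 8 wt and 3'RR-deficient libraries and edgeR's quasi-likelihood test over the whole table. LPS against NS, over both genotypes, called 1 of 147 rows at an adjusted p under 0.05 (38 had an unadjusted p under 0.05), where 4.51% of all 3987 features tested were called (2.16% higher and 2.36% lower). The called row was chr19.tRNA640-LeuTAA (n-TLtaa4, chr19:12011086-12011168, - strand, outside other genes). It had 17.99, 10.6, 25.2 and 20.7 CPM in wt NS 1, wt NS 2, 3'RR-deficient NS 1 and 3'RR-deficient NS 2, and 44.7, 56.9, 56.6 and 54.1 CPM in the LPS libraries in the same order. The groups did not overlap, and the row rose by a log2 fold change of 1.45 (SE 0.34, edgeR adjusted p = 0.0446). Leaving out any 1 of the 8 libraries gave log2 values of 1.34 to 1.61 and edgeR adjusted p of 0.0541 to 0.116, so the call needs all 8. The Eµ-deficient libraries, which the fit did not use, had 46.4 CPM (NS) and 121 CPM (LPS). Of the 276 tested rows of other amino acids 7 were called, all higher. The median log2 fold change was 0.31 for the 147 rows, 0.41 for the 276 and -0.05 for all features. Within wt alone and within 3'RR-deficient cells alone 0 of 147 rows were called (6 and 3 with an unadjusted p under 0.05 in edgeR, and 1 each by DESeq2). Of all 3987 features edgeR called 0% in both, and DESeq2 3.09% in wt and 2.83% in 3'RR-deficient cells.

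The 2 leading rows were lower with LPS but did not pass the threshold. For chr11.tRNA1444-CysGCA the NS libraries had 3524, 5090, 3760 and 3760 CPM and the LPS libraries 1868, 1517, 656 and 1528 CPM, in the order used above. The groups did not overlap, with a log2 fold change of -1.67 (SE 0.43, edgeR adjusted p = 0.0570, 0.000115 to 0.182 over 16 alternatives, 4 of them under 0.05). In the Eµ-deficient libraries it had 3237 CPM without and 549 CPM with LPS, 5.89 times lower. For chr5.tRNA1318-AlaTGC the NS libraries had 5684, 14183, 12977 and 15906 CPM and the LPS libraries 5052, 5656, 2361 and 6293 CPM. Only wt NS 1 lay within the range of the LPS libraries, with a log2 fold change of -1.44 (SE 0.52, edgeR adjusted p = 0.135, 0.0174 to 0.366 over 16 alternatives, 1 of them under 0.05). In the Eµ-deficient libraries it had 12366 CPM without and 2486 CPM with LPS, 4.97 times lower. Both rows kept a negative sign under all 4 scalings.

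The other 56 Cys rows did not follow the leading one. Their summed level was 2293, 1107, 1772 and 1283 CPM in the NS libraries and 3160, 2479, 2121 and 2136 CPM in the LPS libraries, with 1656 and 2420 CPM in the Eµ-deficient pair. Of all 57 Cys rows, 51 had a positive log2 fold change (median 0.85), 25 of them with an unadjusted p under 0.05 and none called. These rows made 25 units, of which 19 were positive throughout and 7 had an unadjusted p under 0.05 in all their rows. The number of positive rows was 48 (17 units) with DESeq2 size factors and 56 (24 units) with total-count or microRNA-class scaling. As an example, chr6.tRNA181-CysGCA had 30.6, 12.1, 22.4 and 16.4 CPM in the NS libraries and 50.7, 42.9, 31.7 and 34.5 CPM in the LPS libraries, in the order used above. Over all 10 libraries the LPS and NS ranges did not overlap for 23 Cys rows that were higher, where 6.15% of 4554 features were so, and for 1 that was lower, the leading row, where 3.03% were so. Of the 23 rows, 17 belonged to the sets of 19 and 12 rows, 2 to a smaller set and 4 to none, so their count cannot be read against the share of single features. The second Cys row by level, chr11.tRNA791-CysGCA (chr11:97797072-97797143, + strand), had 103 to 160 CPM in the 4 NS and 118 to 167 CPM in the 4 LPS libraries. The summed Cys level thus combined 1 abundant row and many low rows with fold changes of opposite sign.

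**Figure D3:**
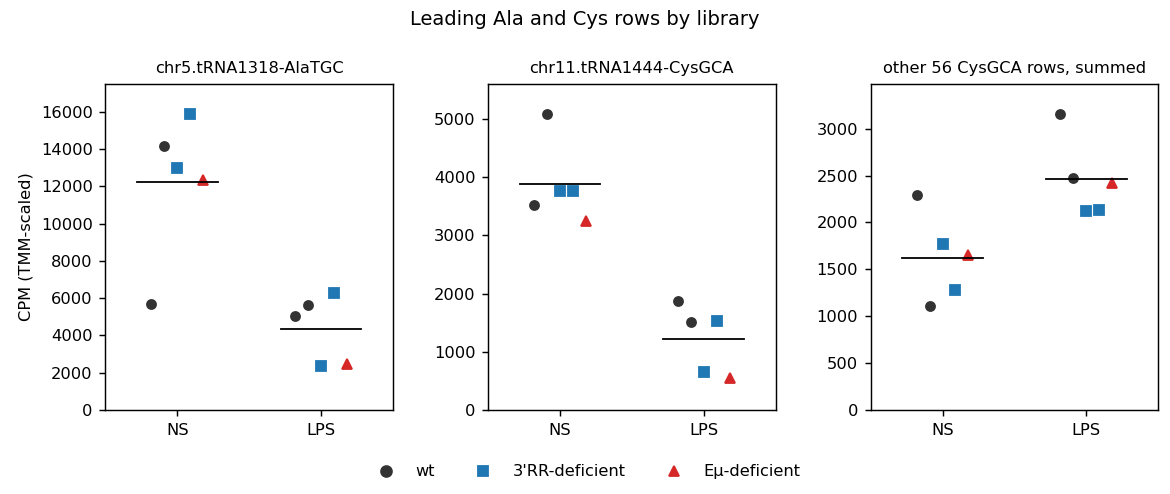
CPM of chr5.tRNA1318-AlaTGC, of chr11.tRNA1444-CysGCA and of the other 56 CysGCA rows summed, in NS and LPS libraries, one point per library and a bar for the mean of 5. The leading Cys row lies between 3237 and 5090 CPM in NS and between 549 and 1868 CPM in LPS libraries, while the other Cys rows together lie between 1107 and 2293 CPM in NS and between 2121 and 3160 CPM in LPS libraries.

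Leu rows split by anticodon and by length. All 4 LeuCAA, 10 LeuCAG and 4 LeuTAA rows had positive log2 fold changes with LPS (medians 0.44, 0.35 and 0.82), also under the 3 other scalings, the LeuCAG rows making 5 units. All 3 LeuTAG rows had negative values (median -1.03), although 1 of 3 turned positive with microRNA-class scaling. The LeuAAG rows divided into 5 negative (4 units) and 3 positive (2 units), the positive ones being the 72 nt rows. Of the 82 nt LeuAAG rows, chr13.tRNA62-LeuAAG (chr13:21170036-21170117, + strand) had 123, 467, 232 and 396 CPM in the NS libraries and 72.2, 68.7, 124 and 125 CPM in the LPS libraries. The groups overlapped only at wt NS 1 (log2 fold change -1.80, SE 0.48, edgeR adjusted p = 0.0612, 0.00277 to 0.198 over 16 alternatives). The row chr11.tRNA401-LeuTAG held similar levels, 125.5, 448, 229 and 381 CPM in NS and 75.4, 86.1, 132 and 136 CPM in LPS libraries, with a log2 fold change of -1.61 (SE 0.46, edgeR adjusted p = 0.0762). Of the 72 nt rows, chr16.tRNA4-LeuAAG had 55.0, 5.73, 35.7 and 8.10 CPM in NS and 162, 114, 51.1 and 136 CPM in LPS libraries. Only 3'RR-deficient LPS 1 fell inside the NS range (log2 fold change 2.04, SE 0.69, edgeR adjusted p = 0.119, 0.000526 to 0.278 over 16 alternatives). These 3 rows were named after their values were seen. The abundant chr10.tRNA1326-LeuTAA and chr11.tRNA1911-LeuCAA had 243 to 397 and 213 to 320 CPM in the 4 NS libraries and 335 to 640 and 275 to 419 CPM in the 4 LPS libraries, with unadjusted p above 0.05.

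Ser rows were mostly lower with LPS, without a call. All 8 SerAGA rows, which made 4 units, had negative log2 fold changes (median -0.73), also under the 3 other scalings. Of the 8 SerGCT rows 7 were negative (median -0.61), 5 of 6 units. All 3 SerCGA rows had positive values (median 0.61) under the 4 scalings. Of these, chr13.tRNA984-SerCGA had 6.91, 4.91, 8.61 and 3.39 CPM in NS and 21.7, 16.6, 14.4 and 14.5 CPM in LPS libraries, with no overlap (log2 fold change 1.39, SE 0.38, edgeR adjusted p = 0.0662). It too was named after its values were seen. The 2 highest Ser rows, chr13.tRNA996-SerTGA and chr13.tRNA86-SerAGA, had 49.2 to 166 and 73.9 to 189 CPM in the 4 NS libraries. In the 4 LPS libraries they had 86.8 to 226 and 55.2 to 114 CPM, overlapping between conditions. The direction of the Ala rows depended on the scaling. Of 36 tested Ala rows 28 had a negative log2 fold change (median -0.21), with 6 of 15 AlaAGC, 0 of 10 AlaCGC and 2 of 11 AlaTGC rows positive. With total-count scaling 12, 8 and 10 of them were positive, and with microRNA-class scaling 15, 9 and 10. The 15 AlaAGC rows made 13 units, of which 6, 10 and 13 were positive in these 3 scalings. The second Ala row, chr2.tRNA263-AlaCGC (chr2:57182078-57182149, + strand, in an intron of 4930555B11Rik), had 385 to 712 CPM in the 4 NS and 379 to 847 CPM in the 4 LPS libraries.

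Summed by anticodon, 0 of 15 sums were called for LPS against NS by edgeR (3 with an unadjusted p under 0.05), where 5.12% of the 3614 features in that table were called (2.79% higher and 2.32% lower). DESeq2 called 2 of the sums and 13.2% of all features. The 3 were AlaTGC (log2 fold change -1.20), LeuTAG (-0.998) and SerCGA (0.78), with edgeR adjusted p of 0.197, 0.197 and 0.178. The number of rows called moved with the scaling, and also with the filter and the test, as given at the end. With the total count as the scale 12 rows (10 units) were called, all higher, where 340 of the 3987 features (8.53%) were called, 271 of them higher. With TMM factors from the microRNA class alone 51 rows (19 units) were called, all higher, where 501 features (12.6%) were called, 424 of them higher. The median log2 fold change of all features moved from -0.05 to 0.35 and 0.57. The median of the 147 rows moved with it, from 0.31 to 0.67 and 0.91.

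No row of the 5 amino acids was called between 3'RR-deficient and wt cells. Against wt, 0 of 147 rows were called in NS libraries, in LPS libraries or over both conditions by edgeR, and 0 had an unadjusted p under 0.05 in any of the 3. Over all features 0%, 0% and 0.0251% were called, and DESeq2 called 0 of the 147 rows over both conditions. The log2 fold changes over both conditions ran from -0.75 to 0.72. The biological coefficient of variation was 55.0% to 58.1% with 2 pools per group, so the absence of calls does not show that the genotypes were alike. The interaction test of the 2 genotypes' LPS responses gave 0 of 147 rows called and 0 with an unadjusted p under 0.05 (0% of all 3987 features called). For the 15 anticodon sums the calls in all these comparisons were 0 as well (0% of 3614 features, and 0.0277% over both conditions).

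Eµ-deficient cells were compared with wt over both conditions, in a fit of all 10 libraries. With 1 Eµ-deficient library per condition, the lone libraries are assumed to vary like those of the other genotypes. Both may come from the same mice, which the fit did not take into account. By edgeR 1 of 148 rows was called, higher, and 15 had an unadjusted p under 0.05, where 3.43% of 4554 features were called (3.34% higher and 0.0878% lower). Of 278 tested rows of other amino acids 46 were called, all higher, and the difference between the 2 classes of rows was not tested. Of the 148 rows 63 had a positive and 85 a negative log2 fold change (median -0.10, and -0.11 for all features), while the 15 with an unadjusted p under 0.05 were all higher. Negative values were found in 49 of 57 CysGCA rows (17 of 25 units throughout), 12 of 16 AlaAGC rows (10 of 14 units), 9 of 11 AlaTGC rows and 7 of 10 AlaCGC rows, with medians of -0.21, -0.50, -0.19 and -0.21. None of these negative values had an unadjusted p under 0.05.

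The called row was chr4.tRNA622-AlaCGC (n-TAcgc3, chr4:132125259-132125330, + strand), which lies in an intron of the opioid receptor gene Oprd1 on the opposite strand. It had 1460 CPM in Eµ-deficient NS and 1157 CPM in Eµ-deficient LPS. The 4 wt libraries had 129, 220, 166 and 102 CPM (NS 1, NS 2, LPS 1 and LPS 2) and the 4 3'RR-deficient libraries 239, 181, 244 and 142 CPM. Both Eµ-deficient libraries thus lay above all 8 others, whose highest value was 244 CPM. The log2 fold change against wt was 3.08 (SE 0.43, edgeR adjusted p = 0.00224). It stayed between 2.68 and 3.27 over 18 alternatives with adjusted p of 9.98e-10 to 0.0605, and the call was lost without Eµ-deficient NS (log2 2.86, edgeR adjusted p = 0.0605). The other AlaCGC rows had log2 values between -0.58 (chrX.tRNA639-AlaCGC) and 0.11 (chrX.tRNA364-AlaCGC), and none had an unadjusted p under 0.05.

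The SeC tRNA row of 86 nt, chr7.tRNA88-SeCTCA (chr7:19301244-19301329, + strand, outside other genes), had higher values in the Eµ-deficient pair but was not called. It had 218 CPM in Eµ-deficient NS and 564 CPM in Eµ-deficient LPS, against 64.8, 99.6, 68.6 and 31.7 CPM in wt (NS 1, NS 2, LPS 1 and LPS 2). The 3'RR-deficient libraries had 76.4, 88.0, 225 and 48.7 CPM, so that 3'RR-deficient LPS 1 reached the level of Eµ-deficient NS. The log2 fold change was 2.47 (SE 0.66, edgeR adjusted p = 0.0705, 0.000612 to 0.533 over 18 alternatives, 5 of them under 0.05). The other SeC row, chr5.tRNA13-SeCTCA (71 nt, chr5:5627681-5627751, + strand, in an intron of Cfap69 on the opposite strand), had 15.6 and 26.5 CPM in the Eµ-deficient pair and 5.73 to 70.1 CPM in the other 8. As a sum, SeCTCA had a log2 fold change of 1.84 (edgeR adjusted p = 0.103), and AlaCGC 1.02 (edgeR adjusted p = 0.341).

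chr19.tRNA640-LeuTAA, higher with LPS, also had a log2 fold change of 1.46 in Eµ-deficient cells (SE 0.39, edgeR adjusted p = 0.0696). The Eµ-deficient LPS library, at 121 CPM, lay above all others. All 10 LeuCAG rows had positive log2 fold changes (median 0.99, 8 with an unadjusted p under 0.05), but made only 5 units, 3 of them with such a p. All 8 SerGCT rows were positive too (median 0.96, 2 with such a p) and made 6 units. Both held under the 3 other scalings. For the 15 sums 0 were called by edgeR (2 with an unadjusted p under 0.05), where 2.51% of 4179 features were called (2.44% higher and 0.0718% lower). DESeq2 called 1 of the sums and 4.36% of all features. The Eµ-deficient pair also had the highest tRNA share (20.5%, LPS) and the highest summed level of microRNAs of other cells (15704 CPM, NS), and their part in these values was not tested.

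**Figure D4:**
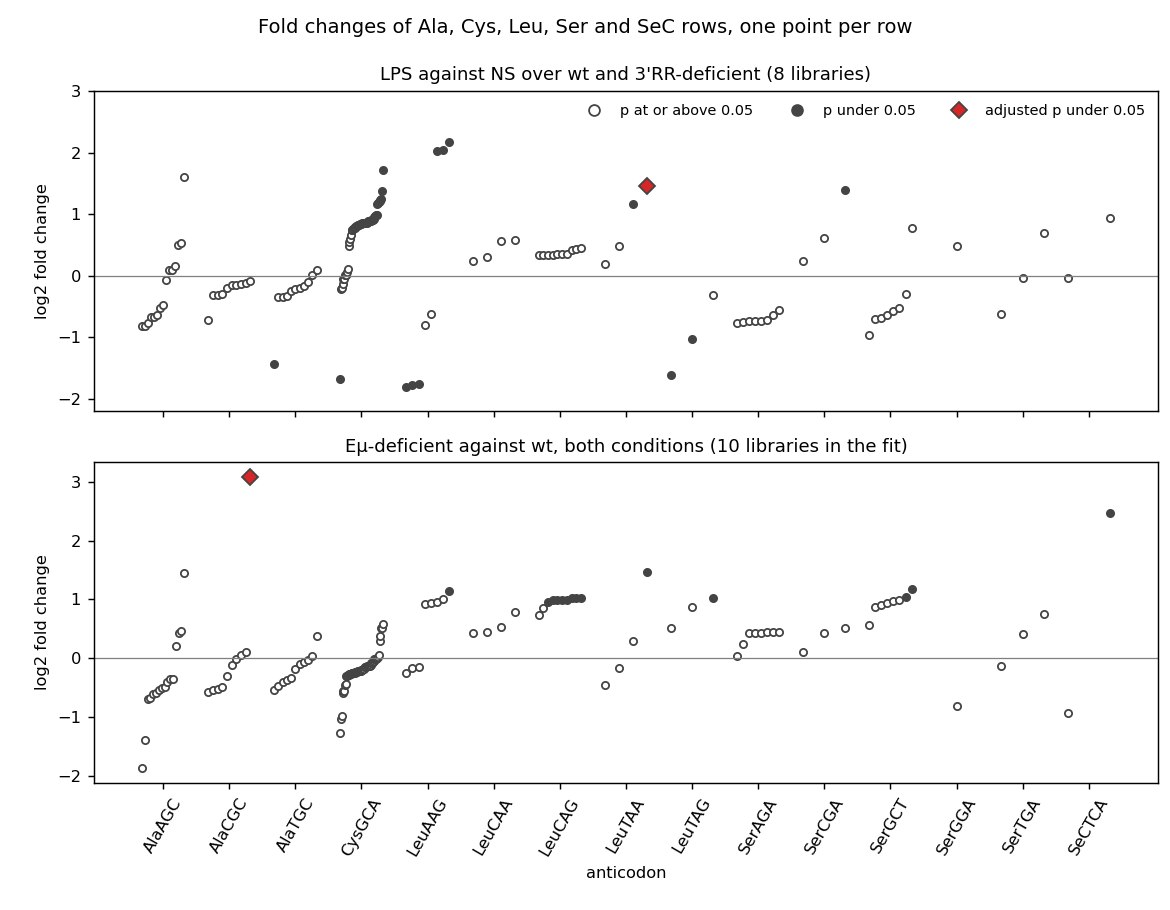
Log2 fold changes of every tested row by anticodon, for LPS against NS over wt and 3'RR-deficient libraries (top) and Eµ-deficient against wt (bottom). Open points have an unadjusted p of 0.05 or more, filled points less, and the red diamonds mark the 1 called row in each panel, at 1.45 (LeuTAA) and 3.08 (AlaCGC).

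**Figure D5:**
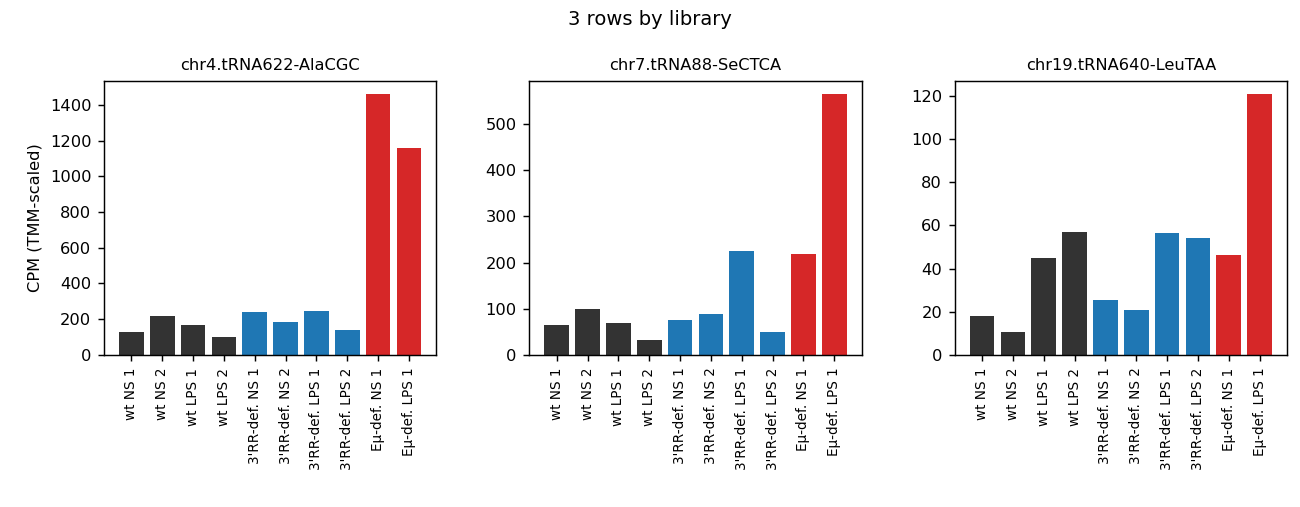
CPM of chr4.tRNA622-AlaCGC, chr7.tRNA88-SeCTCA and chr19.tRNA640-LeuTAA in each of the 10 libraries, 1 bar per library and axes from 0. The AlaCGC row reaches 1460 and 1157 CPM in the Eµ-deficient pair and at most 244 CPM elsewhere.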

How the data were processed

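Small RNA libraries came from the NextFlex kit after size selection. The authors deposited whole-number read counts per feature and library, without normalization. The submitters' processing notes name cutadapt 1.2.1, Bowtie2 and the mm10 build, whereas the counting program and the treatment of reads with several matches are not given in the sources used here. The rows and lists were chosen with earlier results of these data known.

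From the counts, TMM-scaled CPM, shares of tRNA counts and sums by anticodon were computed. Tests used edgeR 4.0.16 in R 4.3.3 (quasi-likelihood, two-sided, filterByExpr by group, Benjamini-Hochberg over all features), on the whole table and again with tRNA rows summed by anticodon. LPS against NS over both genotypes, and 3'RR-deficient against wt over both conditions, were fitted with genotype and stimulation as additive terms. Contrasts within 1 condition or genotype used group means. Shares were compared by exact permutation over libraries on log2 values. DESeq2 1.42.0 and other scalings, filters, blocks and left-out libraries were alternatives. The fits and permutations were checked on simulated data.

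Rows were named by rule: the 2 highest per amino acid, the 3 largest rises and falls among called rows with at least 10 CPM, and all anticodons. Fold changes are given for those with an unadjusted p under 0.05. Other rows named were chosen after their values were seen. Wilson intervals describe counting error alone, because amplified reads carry no mark of their original molecule. Replicate numbers were not treated as pairs. Sequences come from GENCODE M21 and RefSeq (GRCm38), and those of the leading Ala, Cys, Leu and SeC rows were not analysed here. The paper names no test for small RNA.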

Additional observations from a re-analysis of the deposited data

Results flagged for a closer look

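In 3 of 40 sets of 5 libraries (20 amino acid or anticodon shares in each condition) 1 library lay far from the other 4, and chance alone flags about 1 in 20 such sets. The AlaAGC share of tRNA counts was 3.44% in wt NS 1, against 0.751% to 1.203% in the other NS libraries. The SerGGA share, from a single row, was 0.141% in the same library. The SerAGA share was 0.859% in 3'RR-deficient LPS 1.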

How the results depend on the processing

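Of 315 alternatives of the main counts and differences, 284 kept their direction and stayed on their side of the threshold or within 1.5 times the count. For LPS against NS over both genotypes, 1 row was called. The count was 12 with total-count scaling (8.53% of all features called), 51 with microRNA-class scaling (12.6%), 12 without the filter on low counts (11%), 12 with a 10 CPM filter (15.4%) and 16 with DESeq2 (14.2%). Leaving out 1 library gave 0 to 5 rows, with 5 without wt NS 1 (7.44% of all features) and 0 without each of the other 7 (0.663% to 2.41%). DESeq2 called 1 row in wt alone (3.09% of all features), 1 in 3'RR-deficient cells alone (2.83%), 2 of the anticodon sums for LPS (13.2%) and 1 for Eµ-deficient against wt (4.36%). For Eµ-deficient against wt, 2 rows were called without the filter (4.23% of all features), 2 with the 10 CPM filter (8.01%) and 3 with DESeq2 (5.31%). Leaving out 1 library gave 0 to 3 rows, with 0 without Eµ-deficient NS (0.889% of all features), 3 without wt NS 2 (3.83%) and 2 without 3'RR-deficient LPS 1 (2.68%). As shares of all counts, 2 anticodons passed the threshold, the log2 difference of Ser turned to 0.20, and the difference of the 5 amino acids together was -0.449 points. As a share of tRNA counts that difference was -8.37 points, and -16.5 points with 1 row kept per set of matching rows, an alternative chosen after seeing the data. The log2 ratio of Cys to Leu turned to -0.25 without division by length and -0.97 per row, and ran from -0.11 to 0.16 with 1 library left out, negative without wt NS 1 (-0.11), wt NS 2 (-0.03), 3'RR-deficient NS 1 (-0.04), 3'RR-deficient NS 2 (-0.03) and wt LPS 1 (-0.04). That of SeC to Ser turned to 0.39 per row. Beyond fewer libraries or features, the cause was not tested. The 2 shallowest libraries were both NS, which limits the low rows in that condition.

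The labels do not say what a replicate number marks, and the numbers were not taken as pairs because not every pair of groups correlated above 0.1 over all features. Same-numbered libraries deviated together between wt and 3'RR-deficient NS (r = 0.636 over all features, 0.744 over tRNA rows) and LPS (r = 0.285 and 0.395), but not between NS and LPS (r = -0.197 to -0.031 over all features, -0.507 to 0.12 over tRNA rows). With a replicate block 6 rows were called for LPS (7.35% of all features) and 1 for Eµ-deficient against wt (2.96%). With the block within each culture condition the counts were 11 rows (11.5%) and 20 rows (8.48%), and 1 anticodon sum in each comparison (11.3% and 6.53%). The block changed no other count of calls.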
